A study of Mus musculus with 21 samples.

Results

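The genes described here are 31 genes of T lymphocytes and natural killer (NK) cells, read in cells sorted as retinal ganglion cells after optic nerve crush. They were chosen by name as a list: the T cell receptor complex, its coreceptor, kinases, adaptors and modulators, and the granule proteins, receptors and cytokine genes of cytotoxic cells. All 31 were among the 17164 genes of the count table, and all 31 passed the filter on low counts, which kept 16797 genes. The list was proposed with results of these data known, so the levels and differences of its members are a description and carry no test. The levels of other lymphocyte and marker genes are set beside them.

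The study measured RNA in sorted cells of C57BL/6 mice aged 6 to 7 weeks, 3 days after crush, with 5000 to 10000 cells per sort. The cells had received a guide RNA against CEBPG (4 libraries), CHOP, the product of Ddit3 (5 libraries), ATF3 (5 libraries) or ATF4 (2 libraries), or a control guide that matches no target (4 libraries). All 5 groups share the strain, the nerve crush and the sort, so the controls are injured too. A further library, whose title and genotype disagree, was left out. The CEBPG, CHOP and ATF3 knockouts were all female and of batch 3 in the submitters' sample sheet, the ATF4 knockouts were 1 female and 1 male of batch 1, and the controls were all male and of batch 2. Between any knockout and the controls, the guide, the batch and, for 3 of the 4 knockouts, the sex cannot be told apart. The comparisons among the CEBPG, CHOP and ATF3 knockouts are within 1 batch and 1 sex. The ATF4 library labelled female, replicate 1, had 61.5 CPM of the Y-linked gene Ddx3y and 0.260 CPM of Xist, levels like those of the males. The sources name neither the gate of the sort, nor the way the guides reached the cells, nor the number of animals per library.

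Mature T cells recognise antigen through a receptor whose signal passes through the CD3 chains to the kinase Lck, then to Zap70 and to the scaffold Lat. CD8 T cells and NK cells carry granules of perforin and granzymes with which they kill target cells, and secrete interferon gamma. Neurons do not use these proteins as a programme, and the healthy retina holds few lymphocytes, although T cells can enter it after injury to the optic nerve. In bulk RNA from a sort, more cells of a type and more RNA per cell cannot be told apart.

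Depth differed between the groups. CEBPG libraries held 9000250 to 29810987 counted reads, CHOP libraries 14272784 to 31543917, ATF3 libraries 25267560 to 32776378, ATF4 libraries 11929692 to 12404601 and control libraries 6401446 to 11752828. A gene with 3 reads, the limit that a count of 0 allows, stood at 0.0915 to 0.469 reads per 1000000 counted reads, depending on the library. These limits have no TMM scaling, whereas CPM are counts per 1000000 counted reads, scaled by TMM library factors throughout. These limits cover counting error only. The transcripts of the targeted genes were all still read. Cebpg averaged 74.6 ± 21.2 CPM in CEBPG knockouts and 83.3 ± 7.81 CPM in controls (SD, n = 4 each). Ddit3 averaged 65.5 ± 6.13 CPM in CHOP knockouts (n = 5) and 88.3 ± 14.7 CPM in controls, and Atf3 averaged 38.3 ± 6.68 CPM in ATF3 knockouts (n = 5) and 113 ± 9.28 CPM in controls. Atf4 averaged 154 ± 7.96 CPM in ATF4 knockouts (n = 2) and 301 ± 71.7 CPM in controls. Within the batch none of the 3 targeted transcripts had its lowest mean in its own knockout. Cebpg averaged 74.6 CPM in CEBPG knockouts, against 55.8 CPM in CHOP and 62.2 CPM in ATF3 knockouts. Ddit3 averaged 65.5 CPM in CHOP knockouts, against 66.5 CPM in CEBPG and 61.9 CPM in ATF3 knockouts, and Atf3 averaged 38.3 CPM in ATF3 knockouts, against 74.5 CPM in CEBPG and 36.9 CPM in CHOP knockouts. A guide RNA can disrupt a protein and leave its transcript, so these levels do not check the labels.

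The start regions of the genes are shown because the members were high in the same libraries. RefSeq gives 24 start regions (250 bases before to 50 after a start, build GRCm38.p6) for 21 of the 31 genes. They were searched on both strands for the letters TGTGGT, bound by RUNX factors, CAGGAAG, bound by ETS factors, and GGTGTGA, bound by T-box factors such as the product of Tbx21. The RUNX and T-box letters can overlap by the bases GGT, but no match overlapped another in the regions printed. TGTGGT was in 10 of the 24 regions (41.7%) and in 16.8% of all 32851 RefSeq start regions of this length. CAGGAAG was in 11 (45.8%), against 13.3% of all, and GGTGTGA was in 2 (8.33%), against 3.98% of all. A match is a description of the letters, not a binding site. The 5 regions that held at least 2 kinds of match are printed 5′ to 3′ on the strand of the gene, with the matches in capitals (a match on the other strand appears as ACCACA or CTTCCTG).
Nkg7 (chr7:43436888-43437187, plus strand): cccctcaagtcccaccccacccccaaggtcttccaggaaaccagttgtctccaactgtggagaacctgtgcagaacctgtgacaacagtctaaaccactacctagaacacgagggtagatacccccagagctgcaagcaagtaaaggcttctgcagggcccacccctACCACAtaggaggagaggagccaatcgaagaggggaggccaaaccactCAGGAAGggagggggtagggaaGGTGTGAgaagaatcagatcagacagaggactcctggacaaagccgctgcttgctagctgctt
Prf1 (chr10:61297586-61297885, plus strand): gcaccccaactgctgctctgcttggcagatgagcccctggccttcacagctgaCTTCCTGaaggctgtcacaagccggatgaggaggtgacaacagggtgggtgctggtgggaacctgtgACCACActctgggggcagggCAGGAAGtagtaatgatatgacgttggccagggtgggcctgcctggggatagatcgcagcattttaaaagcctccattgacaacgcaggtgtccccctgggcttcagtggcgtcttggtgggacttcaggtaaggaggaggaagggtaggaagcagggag
Lck, distal start (chr4:129573592-129573891, minus strand): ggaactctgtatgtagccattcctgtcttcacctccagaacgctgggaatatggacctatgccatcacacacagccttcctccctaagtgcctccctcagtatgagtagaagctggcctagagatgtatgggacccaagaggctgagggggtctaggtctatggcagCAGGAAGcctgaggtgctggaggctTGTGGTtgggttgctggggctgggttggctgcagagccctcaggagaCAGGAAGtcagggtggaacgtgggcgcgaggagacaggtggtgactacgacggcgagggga
Zap70 (chr1:36764265-36764564, plus strand): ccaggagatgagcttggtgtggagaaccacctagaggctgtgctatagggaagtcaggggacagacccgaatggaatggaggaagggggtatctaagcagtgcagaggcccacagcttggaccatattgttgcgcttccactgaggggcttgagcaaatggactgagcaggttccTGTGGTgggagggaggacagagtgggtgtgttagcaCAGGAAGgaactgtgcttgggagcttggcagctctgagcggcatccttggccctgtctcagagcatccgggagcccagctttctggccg
Lat (chr7:126369519-126369818, minus strand): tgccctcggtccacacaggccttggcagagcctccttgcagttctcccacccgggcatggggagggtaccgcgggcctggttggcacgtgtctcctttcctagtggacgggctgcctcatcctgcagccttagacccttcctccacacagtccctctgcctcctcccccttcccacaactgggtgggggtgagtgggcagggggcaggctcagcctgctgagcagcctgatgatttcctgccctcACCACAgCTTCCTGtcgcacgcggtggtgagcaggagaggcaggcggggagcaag
The Nkg7 region held all 3 kinds of match, with the RUNX letters from base -83, the ETS letters from base -35 and the T-box letters from base -13, counted from the start. The distal Lck region held the ETS letters from bases -83 and -11 and the RUNX letters from base -58. The Zap70 region printed is an alternative start of that gene. The Zap70 region at the annotated gene start (chr1:36761548-36761847) and a further Zap70 region (chr1:36778734-36779033) held no match. Of the other members with a region, Gzmb held the RUNX letters 2 times, from bases -93 and -34, and Gzmk held the T-box letters from base -75. Cd96 also held the RUNX letters 2 times, from bases 39 and -28, and Cd247 the ETS letters 2 times, from bases -57 and 22. Gzma, Klrc1 and Klrk1 held a single RUNX match, and Cd3e, Cd5, Dusp2 and Tbx21 a single ETS match.

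The 31 genes were higher in every CEBPG knockout library than in any library of the other groups of its batch. Together they took 0.377% ± 0.0467 of counted reads in CEBPG knockouts (SD, n = 4), 0.0674% ± 0.0134 in CHOP knockouts (n = 5) and 0.0552% ± 0.00315 in ATF3 knockouts (n = 5). In the 2 ATF4 knockout libraries they took 0.0138% and 0.00490%, and in the controls 0.00332% ± 0.00102 (n = 4). The mean share in CEBPG knockouts was 5.59 times that in CHOP knockouts and 6.82 times that in ATF3 knockouts. The CHOP and ATF3 knockouts overlapped, with means 1.22-fold apart.

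**Figure D1:**
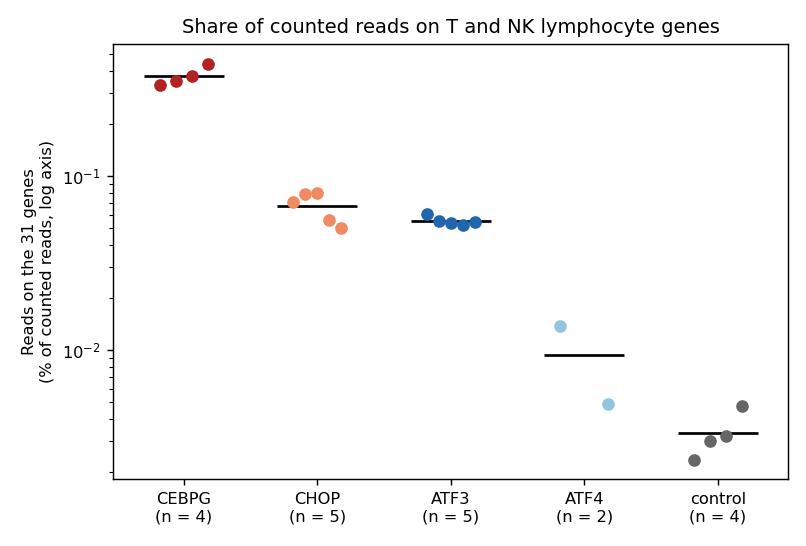
Share of counted reads on the 31 genes in each library (points; percent, log axis) with the group mean (line). The 4 CEBPG knockout libraries stand above all others, the CHOP and ATF3 knockouts overlap, and the ATF4 knockouts and the controls lie lowest.

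Reads lay on nearly all members. All 31 had reads in every CEBPG and every ATF3 knockout library, and 30 had reads in every CHOP knockout library, where Prf1 was at 0 in replicate 4. In the ATF4 knockouts 19 of 31 had reads in both libraries, and in the controls 9 of 31 had reads in all 4. Among the CEBPG knockouts, replicate 10 was the highest library for 24 of 31 genes, and replicate 6 was the lowest for 14 and replicate 8 for 10. Within the CHOP knockouts replicate 5 was the lowest library for 18 genes and the highest for none.

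**Figure D2:**
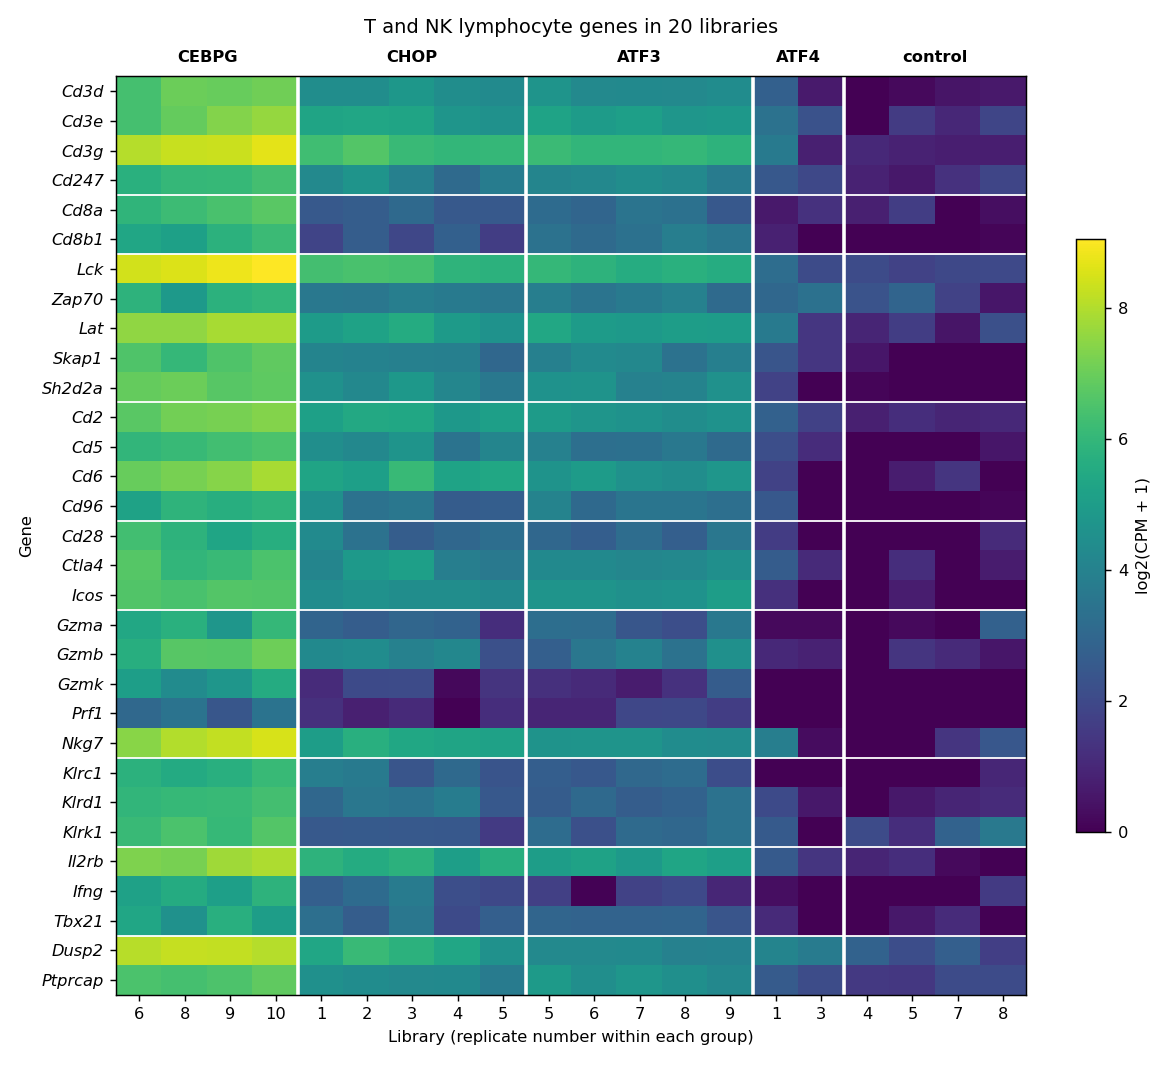
Level of each of the 31 genes (rows, grouped by role) in each of the 20 libraries (columns, grouped by guide), as log2(CPM + 1). The CEBPG knockout columns are the brightest in every row, the CHOP and ATF3 columns lie between, and most control cells are near 0.

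Levels compared per kilobase of exon put the granule membrane protein Nkg7 first in CEBPG knockouts, at 298 ± 86.5 CPM per kilobase. Lck followed at 145 ± 28.6, Dusp2 at 141 ± 11.2, Cd3g at 99.6 ± 18.4 and Cd2 at 80.2 ± 14.2 CPM per kilobase (SD, n = 4). Lck and Dusp2 did not differ beyond their spread. The lowest were Cd28 at 9.16 ± 2.73 and Prf1 at 3.06 ± 1.03 CPM per kilobase. Nkg7 was also first in the CHOP knockouts, at 43.1 ± 8.05 CPM per kilobase, and in the ATF3 knockouts, at 24.6 ± 2.90 CPM per kilobase, and Prf1 was last in both.

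The CD3 chains, which carry the signal of the T cell receptor into the cell, were present in all 14 libraries of the batch. Cd3g, the gamma chain, stood at 261, 312, 323 and 406 CPM in CEBPG knockouts, at 75.8, 97.3, 70.1, 63.3 and 64.4 CPM in CHOP knockouts and at 71.2, 61.7, 61.0, 63.9 and 57.4 CPM in ATF3 knockouts. It stood at 12.2 and 0.730 CPM in ATF4 knockouts and at 1.08, 0.810, 0.680 and 0.715 CPM in controls. The lowest CEBPG library thus lay above the highest CHOP library, the CHOP and ATF3 libraries interleaved, and only replicate 1 of the ATF4 knockouts lay clearly above the controls. Cd3e, the epsilon chain, stood at 83.3, 119, 163 and 194 CPM in CEBPG knockouts, at 38.1, 39.7, 38.2, 25.2 and 23.2 CPM in CHOP knockouts and at 37.3, 30.4, 33.9, 25.8 and 27.6 CPM in ATF3 knockouts. Its values were 9.54 and 3.81 CPM in ATF4 knockouts and 0, 1.94, 1.02 and 2.68 CPM in controls. Again the CHOP and ATF3 knockouts overlapped, and both ATF4 libraries lay above every control. Cd3d, the delta chain, stood at 82.3, 128, 121 and 134 CPM in CEBPG knockouts, at 20.7, 20.9, 26.4, 20.5 and 19.0 CPM in CHOP knockouts and at 24.7, 17.97, 18.4, 18.2 and 20.4 CPM in ATF3 knockouts. It had 5.81 and 0.568 CPM in ATF4 knockouts and 0, 0.162, 0.425 and 0.536 CPM in controls. CEBPG replicate 6 was the low library of its group for all 3 chains and still exceeded every library of the other groups. Cd247, the zeta chain, ran from 52.2 to 80.1 CPM in CEBPG, from 7.68 to 24.8 CPM in CHOP and from 12.5 to 20.7 CPM in ATF3 knockouts. The exons of Cd247 share 3007 bases with Pou2f1 on the opposite strand in the annotation, and the library kit does not mark strand, so reads of the pair cannot be told apart there. The genes Cd3g, Cd3d and Cd3e lie side by side (mm10, chromosome 9, from 44969572 to 45009627). The 4 chains differed by a similar amount, with log2 fold changes of 1.94 to 2.54 for CEBPG over ATF3 and of 2.07 to 2.44 for CEBPG over CHOP.

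The CD8 coreceptor, a dimer that binds the class I molecules seen by killer T cells, had the lowest median log2 fold change of CHOP over ATF3 knockouts among the roles, -0.98. Cd8a, its alpha chain (mm10, chromosome 6, from 71373427 to 71379173), stood at 60.4, 72.6, 87.1 and 106 CPM in CEBPG knockouts, at 4.83, 5.36, 7.59, 4.74 and 4.70 CPM in CHOP knockouts and at 8.01, 6.77, 10.2, 9.35 and 4.61 CPM in ATF3 knockouts. The ATF4 knockouts had 0.520 and 1.46 CPM of Cd8a and the controls 0.720, 2.11, 0 and 0.268 CPM. CHOP and ATF3 libraries overlapped for Cd8a, since ATF3 replicate 9 lay below all CHOP libraries. Cd8b1, the beta chain, which in mouse marks conventional CD8 T cells more narrowly than Cd8a, stood at 40.2, 34.1, 55.6 and 70.8 CPM in CEBPG knockouts, at 2.66, 5.40, 2.82, 5.79 and 2.16 CPM in CHOP knockouts and at 9.54, 7.83, 9.51, 13.7 and 10.9 CPM in ATF3 knockouts. ATF4 knockouts had 0.781 and 0 CPM of Cd8b1, and the controls 0, 0, 0 and 0.0893 CPM, which is 1 read in all 4 libraries. For Cd8b1 every CHOP library lay below every ATF3 library, with a log2 fold change of -1.44 (SE 0.367) for CHOP over ATF3. The difference from CEBPG was 3.73 (SE 0.406) over CHOP and 2.29 (SE 0.384) over ATF3 on the log2 scale.

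The kinases and adaptors that carry the receptor signal were highest in CEBPG knockouts too. Lck, the kinase bound to CD4 and CD8 that starts the signal, stood at 341, 379, 453 and 530.2 CPM in CEBPG knockouts, at 80.2, 87.2, 81.8, 57.9 and 56.0 CPM in CHOP knockouts and at 64.4, 57.4, 48.1, 53.1 and 48.2 CPM in ATF3 knockouts. It was at 8.50 and 3.16 CPM in ATF4 knockouts and at 3.24, 2.43, 2.89 and 2.95 CPM in controls, so it was read in all 20 libraries. Lck was the member with the most reads in the CEBPG knockouts, and its CHOP and ATF3 libraries overlapped. Lat, the membrane scaffold that Zap70 phosphorylates, stood at 185, 186, 230.0 and 231 CPM in CEBPG knockouts, at 30.04, 35.95, 46.9, 29.4 and 23.5 CPM in CHOP knockouts and at 42.0, 30.5, 28.9, 32.1 and 31.003 CPM in ATF3 knockouts. Lat had 12.1 and 1.70 CPM in ATF4 knockouts and 0.900, 2.11, 0.425 and 3.57 CPM in controls. CHOP and ATF3 knockouts had nearly the same Lat level, with a log2 fold change of 0.01 (SE 0.313) between them. Sh2d2a, the T cell specific adaptor that binds Lck, stood at 120.4, 129, 103 and 112 CPM in CEBPG knockouts, at 23.0, 17.8, 27.1, 16.9 and 11.2 CPM in CHOP knockouts and at 23.3, 24.2, 14.8, 15.4 and 23.1 CPM in ATF3 knockouts. It had 2.43 and 0 CPM in ATF4 knockouts and 0.0900, 0, 0 and 0 CPM in controls, a single read in replicate 4. Zap70, the kinase that docks on the phosphorylated CD3 chains, ran from 29.1 to 61.3 CPM in CEBPG, from 10.9 to 13.5 CPM in CHOP and from 7.66 to 14.8 CPM in ATF3 knockouts. Outside the batch Zap70 was at 7.11 and 9.41 CPM in ATF4 knockouts and 0.447 to 6.48 CPM in controls. Skap1, an adaptor that links the receptor to integrin adhesion, ran from 64.4 to 114 CPM in CEBPG, from 7.20 to 16.1 CPM in CHOP and from 9.75 to 18.9 CPM in ATF3 knockouts.

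The surface molecules that tune T cell contact and activation had the highest median log2 fold change of CHOP over ATF3 knockouts among the roles, 0.66. Cd6, a receptor for ALCAM, stood at 122, 146, 171 and 233 CPM in CEBPG knockouts, at 37.7, 33.9, 67.9, 37.1 and 41.3 CPM in CHOP knockouts and at 23.9, 30.7, 23.1, 20.6 and 26.2 CPM in ATF3 knockouts. It had 2.43 and 0 CPM in ATF4 knockouts and 0, 0.648, 1.62 and 0 CPM in controls. Every CHOP library exceeded every ATF3 library for Cd6, by a log2 fold change of 0.81 (SE 0.360), and CHOP replicate 3 was the high library of its group. Cd2, an adhesion receptor of T and NK cells, stood at 106, 140.3, 146 and 166 CPM in CEBPG knockouts, at 34.2, 43.3, 41.1, 27.2 and 33.3 CPM in CHOP knockouts and at 30.2, 25.2, 23.3, 20.7 and 23.6 CPM in ATF3 knockouts. Cd2 was at 6.07 and 2.35 CPM in ATF4 knockouts and at 0.720, 1.30, 0.935 and 1.07 CPM in controls. Only CHOP replicate 4 fell within the ATF3 range for Cd2. Cd5, a brake on T cell receptor signalling, stood at 60.8, 68.1, 79.3 and 88.1 CPM in CEBPG knockouts, at 21.4, 17.6, 25.0, 9.88 and 16.2 CPM in CHOP knockouts and at 14.8, 8.94, 9.19, 11.3 and 7.86 CPM in ATF3 knockouts. It had 3.56 and 1.22 CPM in ATF4 knockouts and 0, 0, 0 and 0.447 CPM in controls. Cd5 and Cd6 lie next to each other (mm10, chromosome 19, from 10717116 to 10830058). Cd96, a nectin receptor of T and NK cells, ran from 36.1 to 58.7 CPM in CEBPG, from 5.14 to 22.3 CPM in CHOP and from 7.45 to 15.5 CPM in ATF3 knockouts, and the controls held 1 read of it in all.

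The CD28 family, in which Cd28 and Icos costimulate T cells and Ctla4 restrains them, had the lowest median log2 fold change of CEBPG over ATF3 knockouts among the roles, 2.09. Icos stood at 95.5, 86.3, 98.0 and 95.3 CPM in CEBPG knockouts, at 19.96, 23.0, 20.6, 20.5 and 18.7 CPM in CHOP knockouts and at 24.7, 25.0, 22.3, 23.6 and 31.6 CPM in ATF3 knockouts. It had 1.39 and 0 CPM in ATF4 knockouts and 0, 0.648, 0 and 0 CPM in controls. The CEBPG libraries were close together for Icos, and ATF3 replicate 9 was the high library of its group. Ctla4 stood at 99.4, 61.3, 69.8 and 88.0 CPM in CEBPG knockouts, at 16.6, 28.6, 33.6, 13.5 and 11.6 CPM in CHOP knockouts and at 18.8, 18.4, 16.96, 17.7 and 21.6 CPM in ATF3 knockouts. Its levels were 5.20 and 1.14 CPM in ATF4 knockouts and 0, 1.30, 0 and 0.625 CPM in controls. CEBPG replicate 6, low for the CD3 chains, was the high library for Ctla4 and for Cd28. Cd28 stood at 78.3, 57.2, 38.6 and 50.3 CPM in CEBPG knockouts, at 19.2, 9.69, 5.31, 7.18 and 8.65 CPM in CHOP knockouts and at 7.07, 5.47, 8.44, 5.64 and 10.9 CPM in ATF3 knockouts. It had 2.08 and 0 CPM in ATF4 knockouts and 0, 0, 0 and 1.16 CPM in controls. The 3 genes are neighbours (mm10, chromosome 1, from 60716800 to 61000320).

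The granule genes of killer cells differed between CEBPG and the other knockouts by more than the CD3 chains did, by the median. Nkg7, a granule membrane protein needed for release, stood at 171, 259, 298 and 360.1 CPM in CEBPG knockouts, at 31.8, 51.2, 40.7, 37.8 and 35.4 CPM in CHOP knockouts and at 23.9, 24.4, 24.9, 19.9 and 19.4 CPM in ATF3 knockouts. It had 13.5 and 0.243 CPM in ATF4 knockouts and 0, 0, 1.62 and 4.56 CPM in controls. Every CHOP library exceeded every ATF3 library for Nkg7. Gzmb, granzyme B, the protease that starts death of the target cell, stood at 50.1, 102, 99.5 and 133 CPM in CEBPG knockouts, at 18.6, 20.1, 14.9, 17.2 and 3.62 CPM in CHOP knockouts and at 5.66, 11.1, 15.1, 9.53 and 22.1 CPM in ATF3 knockouts. Gzmb was at 1.04 and 0.811 CPM in ATF4 knockouts and at 0, 1.62, 1.11 and 0.447 CPM in controls. CHOP replicate 5 was the lowest of the batch for Gzmb and also for Gzma. Gzma, granzyme A, stood at 42.1, 52.5, 26.1 and 64.9 CPM in CEBPG knockouts, at 6.51, 5.30, 6.91, 6.19 and 1.25 CPM in CHOP knockouts and at 8.59, 8.51, 4.42, 3.53 and 11.3 CPM in ATF3 knockouts. It had 0.173 and 0.162 CPM in ATF4 knockouts and 0, 0.162, 0 and 6.07 CPM in controls, where replicate 8 alone reached the range of the CHOP and ATF3 knockouts. Gzmk, granzyme K, ran from 19.8 to 46.0 CPM in CEBPG, from 0.1497 to 3.20 CPM in CHOP and from 0.631 to 5.16 CPM in ATF3 knockouts and was at 0 in every ATF4 and control library. Prf1, perforin, the pore former, ran from 4.39 to 10.03 CPM in CEBPG, from 0 to 1.40 CPM in CHOP and from 0.906 to 2.87 CPM in ATF3 knockouts and was also at 0 in every ATF4 and control library.

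The lectin receptors of NK cells, which some CD8 T cells also carry, lay highest in CEBPG knockouts as well. Klrk1, the activating receptor NKG2D, stood at 68.7, 89.3, 66.5 and 98.3 CPM in CEBPG knockouts, at 4.76, 4.89, 4.72, 4.64 and 1.91 CPM in CHOP knockouts and at 8.23, 3.59, 7.77, 7.17 and 9.54 CPM in ATF3 knockouts. It had 4.86 and 0 CPM in ATF4 knockouts and 3.24, 1.30, 6.21 and 11.5 CPM in controls. The controls thus overlapped the CHOP and ATF3 knockouts for Klrk1, unlike for most members. Klrd1, or CD94, the partner of the NKG2 receptors, stood at 61.9, 65.2, 68.1 and 80.5 CPM in CEBPG knockouts, at 7.14, 10.9, 9.82, 13.0 and 4.66 CPM in CHOP knockouts and at 5.20, 7.45, 5.40, 6.11 and 9.58 CPM in ATF3 knockouts. It was at 3.12 and 0.487 CPM in ATF4 knockouts and at 0, 0.486, 0.935 and 1.16 CPM in controls. CEBPG libraries lay close together for Klrd1, and the CHOP and ATF3 knockouts overlapped. Klrc1, the inhibitory receptor NKG2A, stood at 55.2, 45.9, 51.3 and 68.3 CPM in CEBPG knockouts, at 13.7, 12.3, 4.17, 7.63 and 4.08 CPM in CHOP knockouts and at 5.47, 4.60, 7.38, 8.18 and 3.36 CPM in ATF3 knockouts. It was at 0 in both ATF4 libraries and at 0, 0, 0 and 0.982 CPM in controls. Klrc1 has a close paralog, Klrc2, and the treatment of reads shared by the pair is unknown, so its level is uncertain.

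The next 3 genes set how killer cells are sustained and what they secrete. Il2rb, the beta chain of the receptors for interleukins 2 and 15, stood at 157, 144, 216 and 244 CPM in CEBPG knockouts, at 56.6, 46.3, 56.0, 32.8 and 49.8 CPM in CHOP knockouts and at 31.7, 35.9, 27.9, 39.4 and 33.7 CPM in ATF3 knockouts. It had 4.86 and 1.62 CPM in ATF4 knockouts and 0.900, 1.30, 0.170 and 0 CPM in controls. CHOP replicate 4 alone fell within the ATF3 range for Il2rb. Ifng, interferon gamma, stood at 34.9, 46.6, 33.6 and 56.6 CPM in CEBPG knockouts, at 5.74, 8.03, 12.5, 3.49 and 2.87 CPM in CHOP knockouts and at 2.29, 0.0324, 2.48, 3.02 and 0.977 CPM in ATF3 knockouts. It had 0.260 and 0 CPM in ATF4 knockouts and 0, 0, 0 and 1.88 CPM in controls. ATF3 replicate 6 was near 0 for Ifng, and the log2 fold change of CEBPG over ATF3, 4.60 (SE 0.794), was the largest of the 31. Tbx21, the T-box factor T-bet that drives Ifng, stood at 39.5, 22.7, 51.5 and 32.0 CPM in CEBPG knockouts, at 8.96, 5.33, 11.1, 3.09 and 5.66 CPM in CHOP knockouts and at 6.70, 6.38, 6.35, 6.62 and 4.26 CPM in ATF3 knockouts. Tbx21 had 1.13 and 0 CPM in ATF4 knockouts and 0, 0.486, 1.19 and 0 CPM in controls. Its CHOP and ATF3 knockouts overlapped, with a log2 fold change of 0.17 (SE 0.512), whereas that of Ifng was 1.89 (SE 0.708).

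Dusp2, a phosphatase of activated lymphocytes that acts on MAP kinases, stood at 267, 304, 301 and 261 CPM in CEBPG knockouts, at 40.3, 68.8, 55.5, 40.2 and 23.1 CPM in CHOP knockouts and at 18.1, 18.3, 18.6, 14.7 and 14.97 CPM in ATF3 knockouts. It had 15.8 and 12.5 CPM in ATF4 knockouts and 6.12, 3.40, 5.70 and 2.23 CPM in controls. Every CHOP library exceeded every ATF3 library for Dusp2, and both ATF4 libraries exceeded every control. Ptprcap, which binds the phosphatase CD45, stood at 89.2, 81.9, 90.9 and 113 CPM in CEBPG knockouts, at 22.3, 20.1, 18.2, 18.8 and 12.7 CPM in CHOP knockouts and at 29.3, 21.0, 26.0, 22.0 and 17.7 CPM in ATF3 knockouts. It had 5.03 and 3.33 CPM in ATF4 knockouts and 1.80, 1.78, 3.23 and 3.22 CPM in controls. In the annotation Ptprcap shares 1224 exon bases with Rps6kb2 on the opposite strand and 432 with Coro1b, so part of its reads may belong to them.

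In the fit across all 16797 genes, 30 of the 31 members were called higher in CEBPG than in ATF3 knockouts (edgeR quasi-likelihood test, Benjamini-Hochberg adjusted p under 0.05), where 10.2% of all genes tested were called higher. The exception was Prf1, at 2.03 (SE 0.810) on the log2 scale. The median log2 fold change of the members was 2.61, with a range from 1.88 to 4.60, and the median over all genes was 0.0042. In CEBPG over CHOP knockouts 31 of 31 were called higher, where 13.5% of all genes were, with a median of 2.55, a range from 1.93 to 4.27 and a median over all genes of -0.0269. All 31 were higher in every CEBPG library than in every ATF3 library, as were 11.1% of all genes, and higher than in every CHOP library, as were 11.3% of all genes. The list was chosen for these contrasts, so the counts are not evidence of a difference. By role, the median log2 fold change over ATF3 knockouts was 2.27 in the T cell receptor complex, near the 2.09 of the CD28 family, and highest in the NK lectin receptors, at 3.35. Over CHOP knockouts it was lowest in the surface modulators, at 2.00, and highest in the CD8 coreceptor, at 3.82.

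**Figure D3:**
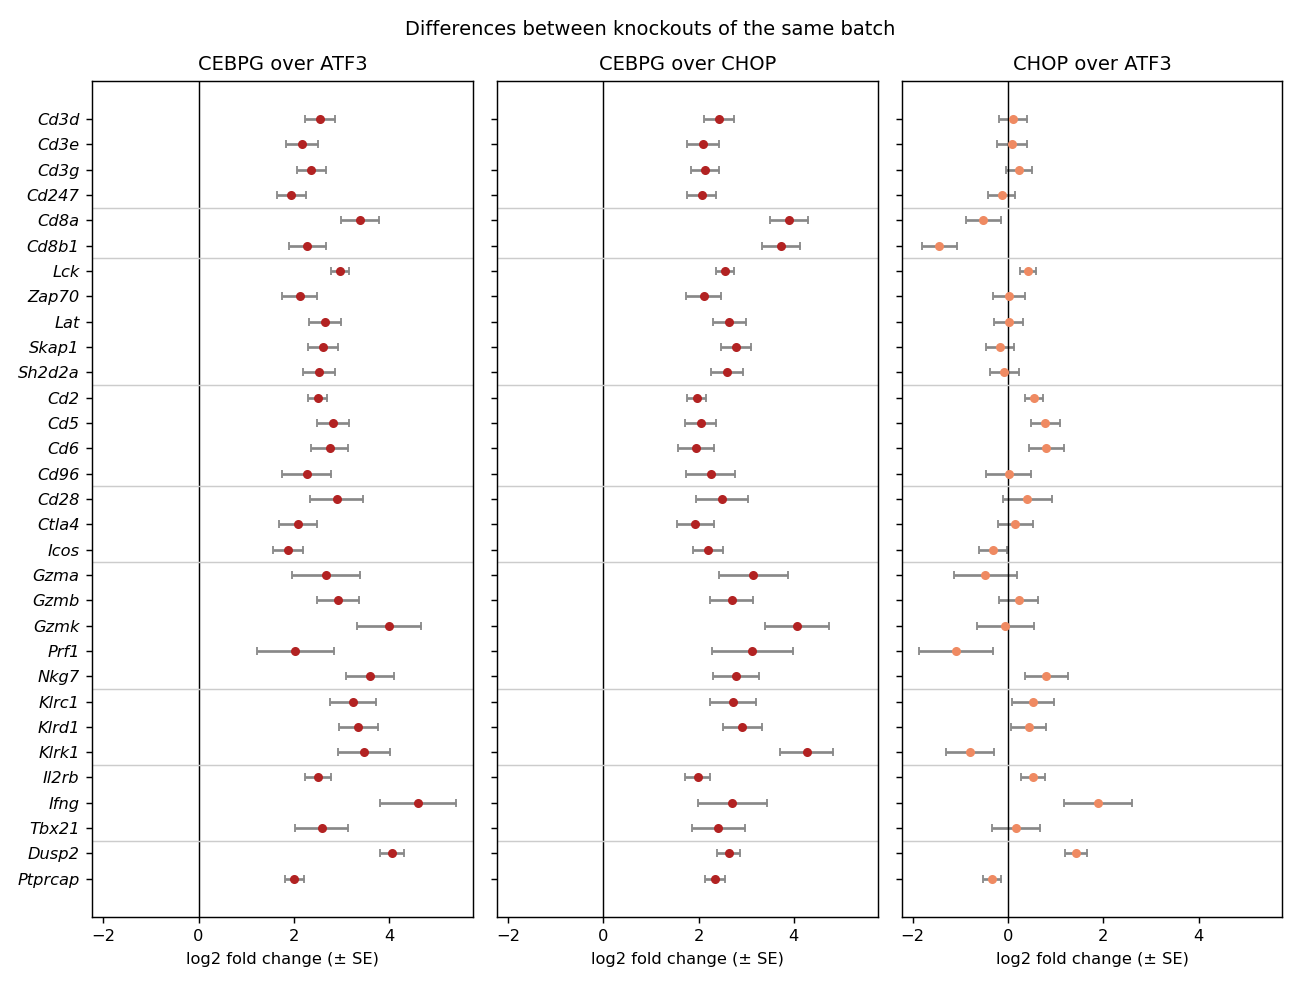
Log2 fold change of each of the 31 genes (points, with the standard error implied by the F statistic of the edgeR test) between knockouts of the same batch. All points of CEBPG over ATF3 and CEBPG over CHOP lie right of 0, and those of CHOP over ATF3 lie on both sides.

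CHOP and ATF3 knockouts differed little in these genes. The median log2 fold change of CHOP over ATF3 was 0.11, with a range from -1.44 to 1.89. Dusp2 was called higher, at 1.43 (SE 0.223), where 0.756% of all genes were called higher, and Cd8b1 was called lower, at -1.44 (SE 0.367), where 1.51% of all genes were called lower. The other 29 were not called, which does not show that they are alike. Every CHOP library was higher than every ATF3 library for 3 members (Cd6, Nkg7 and Dusp2), against 3.60% of all genes, and lower for 1 (Cd8b1), against 4.47%. With only the 14 libraries of the batch in the fit, 3 members were called higher and 1 lower. In several fits with 1 library left out, named below, Cd8b1 was no longer called.

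The make-up of the lymphocyte reads differed among the 3 knockouts of the batch. Reads were set against those of the 4 CD3 chains, which were at least 2182 per library, as a rough scale for T cell reads. The scale is imperfect, since the exons of Cd247 overlap those of Pou2f1. NK cells also carry the granule and lectin receptor genes, so those ratios can vary with the share of NK cells. The ratios are descriptions with no test. Cd8a and Cd8b1 together had 21.0, 17.1, 21.2 and 21.7 reads per 100 CD3 reads in CEBPG knockouts, 4.90, 5.89, 6.98, 9.02 and 5.75 in CHOP knockouts and 11.7, 11.4, 14.7, 18.3 and 13.1 in ATF3 knockouts. All CHOP libraries lay below all ATF3 libraries, and CEBPG overlapped ATF3 by a single library of each. Cd4, the coreceptor of helper T cells, was chosen after its values were seen. Cd4 had 22.3, 17.6, 13.9 and 16.3 reads per 100 CD3 reads in CEBPG knockouts, 19.1, 20.4, 20.7, 21.3 and 24.2 in CHOP knockouts and 10.04, 8.32, 5.85, 19.1 and 7.55 in ATF3 knockouts. The order for Cd4 was thus the reverse of that for CD8 between CHOP and ATF3, with all CHOP libraries above the ATF3 libraries, though ATF3 replicate 8 nearly reached CHOP replicate 1.

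The cytotoxic granule genes had 63.4, 71.2, 67.5 and 75.4 reads per 100 CD3 reads in CEBPG knockouts, 38.9, 44.0, 44.8, 52.6 and 36.1 in CHOP knockouts and 27.1, 36.1, 35.7, 29.6 and 50.9 in ATF3 knockouts. All CEBPG libraries exceeded all others, and CHOP and ATF3 overlapped. The NK lectin receptors had 38.8, 32.1, 27.6 and 30.4 reads per 100 CD3 reads in CEBPG knockouts, 16.7, 15.4, 12.5, 21.6 and 8.92 in CHOP knockouts and 12.6, 12.3, 15.3, 17.02 and 19.1 in ATF3 knockouts, with the same separation. The receptor kinases and adaptors had 140 ± 18.5 in CEBPG, 105 ± 13.6 in CHOP and 102 ± 7.58 in ATF3 knockouts. Their lowest CEBPG library, at 126, also exceeded all others, of which the highest had 123. The surface modulators (means 66.9, 75.7 and 53.7 in the same order) and the cytokine axis (42.1, 43.1 and 31.9) overlapped between CEBPG and CHOP. The CD28 family did not separate the groups, at 37.3 ± 13.3 in CEBPG (n = 4), 35.6 ± 2.85 in CHOP (n = 5) and 39.9 ± 8.27 in ATF3 knockouts (n = 5). Dusp2 had 45.4 ± 9.99 reads per 100 CD3 reads in CEBPG, 31.002 ± 7.93 in CHOP and 12.9 ± 1.14 in ATF3 knockouts. Cd163l1, a scavenger receptor carried by gamma delta T cells that is no member, had 17.7 ± 5.91 reads per 100 CD3 reads in CEBPG, 6.35 ± 4.89 in CHOP and 71.1 ± 6.45 in ATF3 knockouts, so ATF3 knockouts were the highest for it.

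**Figure D4:**
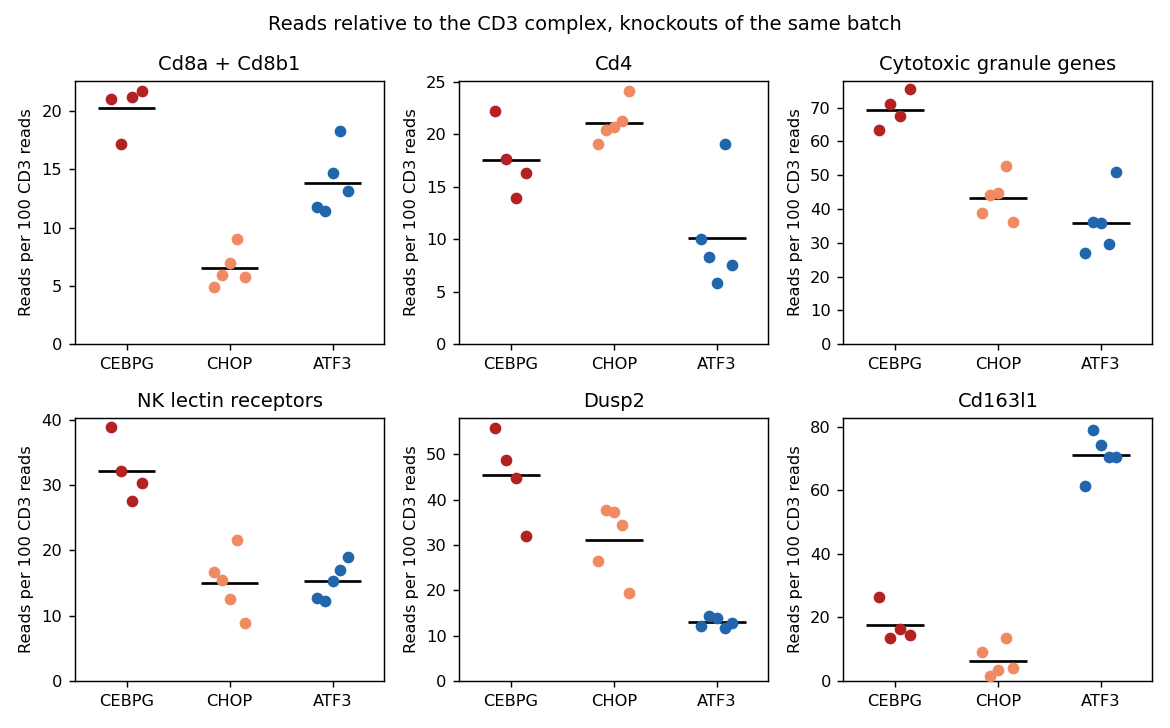
Reads per 100 reads of the 4 CD3 chains in each library (points) with the group mean (line), for 6 genes or gene groups in the CEBPG, CHOP and ATF3 knockouts. Granule genes and NK lectin receptors are highest in CEBPG, CD8 is lowest in CHOP, Dusp2 is lowest in ATF3 and Cd163l1 is highest in ATF3.

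Against the controls most members were called higher in each knockout of batch 3, with the limits of batch, sex and depth given above. In CEBPG over control 31 of 31 were called higher, where 18.3% of all genes were. In CHOP over control 29 were, against 18.1% of all genes, and in ATF3 over control 29 were, against 18.6%. These comparisons share the 4 controls. The mean share of counted reads was 113-fold, 20.3-fold and 16.6-fold that of the controls in CEBPG, CHOP and ATF3 knockouts. Every library exceeded every control for 31 members in CEBPG, as for 14.1% of all genes, for 28 in CHOP, as for 15.4%, and for 28 in ATF3 knockouts, as for 18.9%. Gzma and Klrk1 overlapped the controls in both CHOP and ATF3 knockouts, joined by Prf1 in CHOP and Ifng in ATF3 knockouts. In the controls Gzmk and Prf1 were at 0 in all 4 libraries, and 18, 11, 14 and 8 members were at 0 in replicates 4, 5, 7 and 8. Replicate 8 had the highest level of 14 members among the controls.

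The ATF4 knockouts, which share no batch with any other group, lay near the controls. In ATF4 over control 17 of 31 were called higher and none lower, where 16.6% of all genes were called higher. In 10 members both ATF4 libraries exceeded every control, as in 23.7% of all genes. The count rests on replicate 1, since without it 4 members were called higher and 1 lower. Replicate 1 was the higher library for 26 of 31 members, and it had 3 members at 0, against 12 in replicate 3. Nkg7 was at 13.5 CPM in replicate 1 and at 0.243 CPM in replicate 3, and Cd3g at 12.2 and 0.730 CPM. Dusp2, at 15.8 and 12.5 CPM, and Zap70, at 7.11 and 9.41 CPM, were closer between the libraries.

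A wider list of T and NK genes, written with earlier results known, held 65 genes of which 60 were tested. In CEBPG over ATF3, 45 rose and 1 fell, with a median log2 fold change of 2.25, and in CEBPG over CHOP 50 rose and none fell, with a median of 2.08. In CHOP over ATF3, 1 rose and 3 fell, with a median of -0.12. Of all genes, 10.1% fell in CEBPG over ATF3 and 13.2% in CEBPG over CHOP. Calls in either direction took 20.4%, 26.7% and 2.26% of all genes in CEBPG over ATF3, CEBPG over CHOP and CHOP over ATF3, and 33.4%, 33.5%, 33.4% and 31.3% in CEBPG, CHOP, ATF3 and ATF4 knockouts over control. Among 32 genes of T cell receptor signalling, 26 rose in CEBPG over ATF3 and 28 in CEBPG over CHOP. Ptpn22, a phosphatase that restrains Lck, averaged 151 ± 52.9 CPM in CEBPG, 24.9 ± 11.6 CPM in CHOP and 18.7 ± 2.76 CPM in ATF3 knockouts (edgeR adjusted p = 5.55e-07 for CEBPG over ATF3 and 1.91e-06 for CEBPG over CHOP). Tnfrsf18, the costimulator GITR, averaged 76.0 ± 6.83 CPM in CEBPG, 20.2 ± 2.80 CPM in CHOP and 22.6 ± 2.46 CPM in ATF3 knockouts (edgeR adjusted p = 6.34e-07 and 1.26e-07 in the same order). The adaptors Fyb and Lcp2, which myeloid cells also use, rose by log2 fold changes of 1.51 and 1.51 over ATF3 and of 1.62 and 1.52 over CHOP (edgeR adjusted p from 1.81e-07 to 8.02e-07). They were also present in the controls, at 42.5 ± 5.35 and 39.9 ± 7.18 CPM (SD, n = 4).

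Among 28 further cytotoxic and NK genes, 19 rose and 1 fell in CEBPG over ATF3, and 22 rose in CEBPG over CHOP. Cxcr6, a chemokine receptor of tissue T cells, averaged 596 ± 121 CPM in CEBPG, 108 ± 28.8 CPM in CHOP and 121 ± 14.6 CPM in ATF3 knockouts and 1.56 ± 0.722 CPM in controls (edgeR adjusted p = 3.83e-07 for CEBPG over ATF3 and 9.96e-08 for CEBPG over CHOP). Ctsw, a protease of killer cells, averaged 301 ± 39.7 CPM in CEBPG, 45.8 ± 4.91 CPM in CHOP and 26.9 ± 2.97 CPM in ATF3 knockouts (edgeR adjusted p = 2.69e-07 and 2.75e-06). Il2rg, the common cytokine receptor chain, rose by 1.85 over ATF3 and by 2.16 over CHOP on the log2 scale (edgeR adjusted p = 7.61e-08 and 7.14e-09). Itgae, the integrin chain CD103 of tissue resident T cells, averaged 107 ± 23.1 CPM in CEBPG, 20.3 ± 1.92 CPM in CHOP and 19.0 ± 2.60 CPM in ATF3 knockouts. It rose by 2.40 over CHOP on the log2 scale (edgeR adjusted p = 9.2e-07). Cxcr3, a chemokine receptor of activated T cells, averaged 90.0 ± 29.1 CPM in CEBPG, 28.3 ± 4.43 CPM in CHOP and 10.9 ± 2.00 CPM in ATF3 knockouts. It was the gene of the list that rose in CHOP over ATF3 (log2 fold change 1.38, SE 0.265, edgeR adjusted p = 0.00416).

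Gzmm, granzyme M, went against the rest of its family. It averaged 7.57 ± 2.09 CPM in CEBPG, 10.8 ± 3.11 CPM in CHOP and 20.5 ± 3.13 CPM in ATF3 knockouts and 38.0 ± 6.83 CPM in controls. It fell by 1.43 in CEBPG over ATF3 and by 0.92 in CHOP over ATF3 on the log2 scale (edgeR adjusted p = 0.000197 and 0.0275). Klrg1, an inhibitory receptor of late effector cells, fell by 3.65 (SE 0.812) in CHOP over ATF3 (edgeR adjusted p = 0.0148) and was low in both, at 0.141 ± 0.180 CPM in CHOP and 1.95 ± 0.552 CPM in ATF3 knockouts. Tyrobp, an adaptor of NK and myeloid receptors, fell by 0.77 in the same comparison (edgeR adjusted p = 0.0105).

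Some marker lists of other cells moved with the members and others did not, and their part in the result was not tested. The summed Müller glia, amacrine, bipolar and endothelial genes had lower means in CEBPG than in CHOP and ATF3 knockouts. Of 12 pan-leukocyte genes, 12 rose in CEBPG over ATF3 and 12 in CEBPG over CHOP, and their summed level was 4216 ± 344 RPM (reads per 1000000 counted reads, with no TMM scaling) in CEBPG, 1351 ± 193 in CHOP and 1721 ± 50.8 in ATF3 knockouts, and 1038 ± 161 in controls. Of 12 monocyte and neutrophil genes, 6 rose in CEBPG over ATF3 and 12 in CEBPG over CHOP, with sums of 2609 ± 327, 475 ± 106 and 1048 ± 73.4 RPM in CEBPG, CHOP and ATF3 knockouts and 988 ± 205 in controls. Lyz2, lysozyme of myeloid cells, made up most of it, at 1952 ± 239 CPM in CEBPG, 314 ± 76.0 CPM in CHOP and 734 ± 72.1 CPM in ATF3 knockouts. Microglia genes spread less, at 3895 ± 312 RPM in CEBPG, 2745 ± 409 in CHOP and 3484 ± 84.8 in ATF3 knockouts and 2787 ± 553 in controls. B cell genes summed to 42.3 ± 13.8 RPM in CEBPG, 22.6 ± 4.58 in CHOP and 18.1 ± 5.48 in ATF3 knockouts, and of 8 tested 1 rose in CEBPG over ATF3 and 1 in CEBPG over CHOP, a share near the 10.2% and 13.5% of all genes. The summed monocyte and neutrophil genes overlapped between ATF3 knockouts and controls, groups that differ in batch and sex. The share of the 31 lymphocyte genes was 16.6-fold apart, and the pan-leukocyte sums did not overlap. The wider lists, which hold no member, lay closer together than the 31 genes. Wider T cell receptor signalling genes summed to 597 ± 27.8 RPM in ATF3 knockouts and 266 ± 37.0 in controls. Wider cytotoxic and NK genes summed to 503 ± 36.9 and 278 ± 45.3 RPM.

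**Figure D5:**
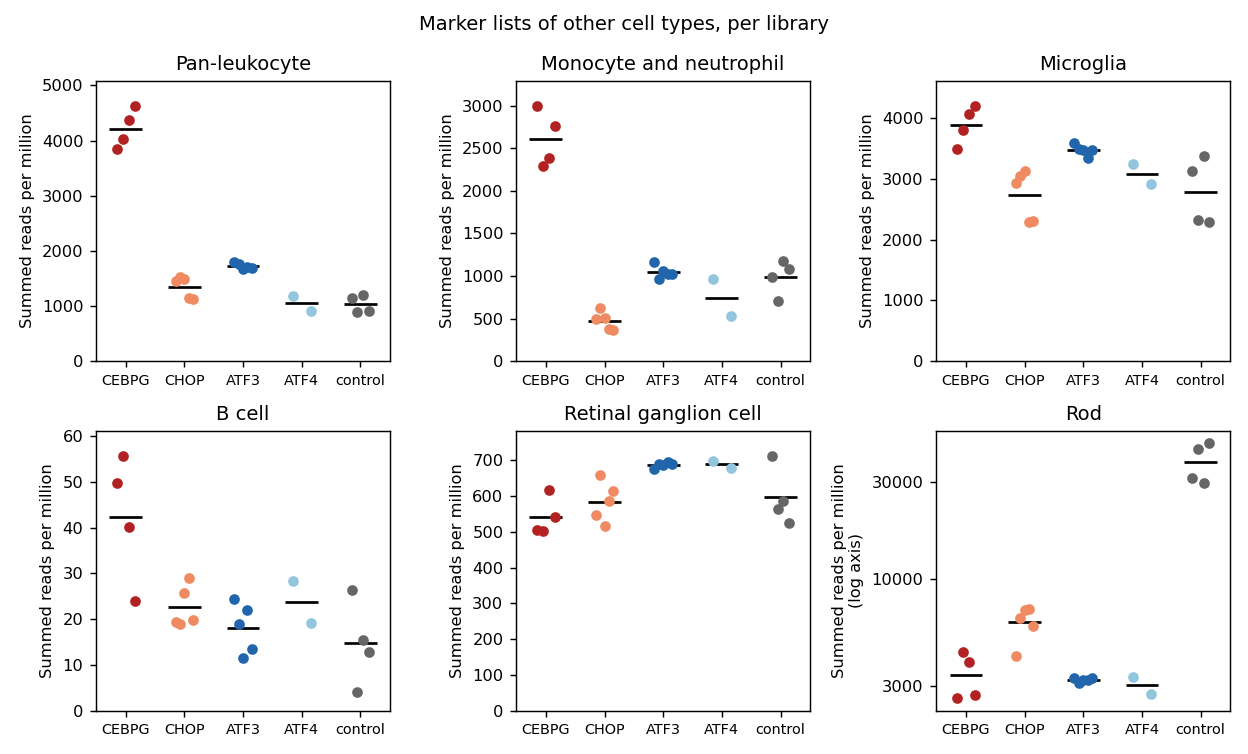
Summed RPM of 6 marker lists in each library (points) with the group mean (line), for the 5 groups; the rod panel has a log axis. Pan-leukocyte and monocyte genes are highest in the CEBPG knockouts, microglia and ganglion cell genes differ less, and rod genes are highest in the controls.

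The labelled cell type was checked against its own markers. Retinal ganglion cell genes summed to 541 ± 52.9 RPM in CEBPG, 584 ± 55.4 in CHOP and 687 ± 6.86 in ATF3 knockouts, to 698 and 679 in the 2 ATF4 knockouts, and to 596 ± 80.9 in controls. Of these 12 genes, 4 rose and 3 fell in CEBPG over ATF3, where 10.2% of all genes rose and 10.1% fell. In CEBPG over CHOP 2 rose and 2 fell, where 13.5% of all genes rose and 13.2% fell. Nefl, a neurofilament gene and the highest of them, averaged 275 ± 49.4 CPM in CEBPG, 328 ± 33.7 CPM in CHOP and 404 ± 5.94 CPM in ATF3 knockouts, 223 ± 6.02 CPM in ATF4 knockouts and 270.3 ± 42.1 CPM in controls. Pou4f2, a defining ganglion cell factor, was at 0 in all 4 CEBPG libraries, the 1 gene of the list at 0 throughout a group. Rod genes summed to 3395 ± 883 RPM in CEBPG, 6131 ± 1186 in CHOP and 3205 ± 72.5 in ATF3 knockouts and 37552 ± 8368 in controls, so the sorted cells held RNA of other retinal cells in every group. Müller glia genes summed to 2367 ± 267, 3924 ± 124 and 4186 ± 232 RPM in CEBPG, CHOP and ATF3 knockouts, and to 3681 ± 748 in controls. Bipolar cell genes summed to 421 ± 87.4, 600 ± 74.9 and 1311 ± 69.1 RPM in the same 3 knockouts. Endothelial genes summed to 178 ± 50.2, 213 ± 26.4 and 265 ± 39.1 RPM. Amacrine cell genes summed to 2922 ± 284, 5512 ± 288 and 4482 ± 46.1 RPM in CEBPG, CHOP and ATF3 knockouts. Their sum was 4018 ± 249 RPM in ATF4 knockouts and 1457 ± 321 RPM in controls, above the ganglion cell sum in every group.

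In the authors' deposited table of fold changes against control, 31 of 31 members had an FDR under 0.05 and a positive value for CEBPG, 23 for CHOP, 23 for ATF3 and 1 for ATF4. Of the 17100 genes in the authors' deposited table, 11.8%, 5.04%, 5.24% and 2.14% were called higher by the same rule. The median log fold change of the members in the authors' deposited table was 8.33 for CEBPG, 6.26 for CHOP, 5.99 for ATF3 and 0.88 for ATF4, on a log scale of unstated base and model. The gene called for ATF4 in the authors' deposited table was Skap1, at 3.96 with an FDR of 0.0309.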

How the data were processed

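RNA of cells sorted by flow cytometry as retinal ganglion cells was made into SMART-Seq libraries, per the labels' protocols. The authors deposited raw read counts per gene for 21 libraries. The submitters' processing notes list mm10 as the build and STAR, Picard, HTSeq and edgeR as tools, all unversioned, and nothing read here states the counting settings. The authors' deposited comparison table gives log fold changes with p-values and FDR values. Their base is not stated by the authors, and log2 is likely but not assumed. The authors' sample sheet gives batch, sex and the fraction of duplicate read pairs (48.0% to 57.6% as percent), and 37 of its columns were not used, since their headers appear shifted.

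Groups follow the titles, and 1 library with contradictory labels was left out. No label ties libraries to animals, and p-values therefore reflect only the spread between libraries, possibly technical. Within-group pairs were further apart than counting noise allows (chi-square per gene from 12.9 to 64.6), and none was a copy. Counts of 20 libraries were filtered with filterByExpr (minimum count 10), scaled by TMM and fitted together in edgeR 4.0.16 (R 4.3.3; glmQLFit, robust, 15 residual degrees of freedom, common biological coefficient of variation 0.407), and 7 contrasts were tested with glmQLFTest at a Benjamini-Hochberg adjusted p under 0.05. CPM are TMM-scaled, summed marker levels are reads per 1000000 counted reads, and levels per kilobase use merged exon lengths of the GENCODE vM21 annotation (mm10). The SE of a log2 fold change is its absolute value divided by the square root of the F statistic of its test. The fit was first tested on simulated data with known changes. Alternatives were RLE factors, no filter, DESeq2 1.42.0, a replicate block, fewer libraries in the fit, another reference and each library left out in turn.

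The members, the gene lists, the tests and the rule for named genes were chosen with earlier results of these data known. In each role up to 3 members with the highest mean CPM are given in every library. Of the wider lists up to 4 called genes per direction were named by adjusted p, and of marker lists those with the highest mean CPM.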

Additional observations from a re-analysis of the deposited data

Results flagged for a closer look

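Of 162 sets of libraries tested for a single library far from the others, 22 held one, by a gap that is large against the whole range of the set. Chance gives about 1 such set in 20 where every library holds reads. For 9 of the control sets all reads lay in 1 library, so the gap equals the range by construction and that rate does not apply.

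In the CHOP knockouts replicate 3 stood high for Cd3d (26.4 CPM, others 19.0 to 20.9), Cd8a (7.59 CPM, others 4.70 to 5.36) and Cd6 (67.9 CPM, others 33.9 to 41.3). Replicate 5 stood low for Skap1 (7.20 CPM, others 13.9 to 16.1), Gzma (1.25 CPM, others 5.30 to 6.91) and Klrk1 (1.91 CPM, others 4.64 to 4.89).

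Among the ATF3 knockouts replicate 9 stood high for Icos (31.6 CPM, others 22.3 to 25.0), Gzmk (5.16 CPM, others 0.631 to 1.42) and the share of the CD28 family (0.00640% of counted reads, others 0.00465% to 0.00505%), and low for Tbx21 (4.26 CPM, others 6.35 to 6.70). Replicate 5 stood high for Lat (42.0 CPM, others 28.9 to 32.1). In the CEBPG knockouts replicate 8 stood low for Zap70 (29.1 CPM, others 56.1 to 61.3).

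The other 10 were in the controls, where nearly all reads of a gene came from 1 library. Replicate 8 held Gzma (6.07 CPM, others 0 to 0.162), Ifng (1.88 CPM), Cd28 (1.16 CPM), Klrc1 (0.982 CPM), Cd5 (0.447 CPM), Cd8b1 (0.0893 CPM) and Cd96 (0.0893 CPM), with the other 3 libraries at 0 for the last 6. Replicate 4 held Skap1 (0.450 CPM) and Sh2d2a (0.0900 CPM), and replicate 5 held Icos (0.648 CPM), again with the others at 0.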

How the results depend on the processing

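Counts of calls in CEBPG over ATF3 and CEBPG over CHOP, for the 31 members and the wider list, kept their size with RLE factors, without a filter, with DESeq2 and without CEBPG replicates 6 and 8 (30 and 31 members). Across 26 alternatives, every member log2 fold change stayed positive in these comparisons, from 1.43 to 5.17 over ATF3 and from 1.44 to 5.05 over CHOP. With each of the 20 libraries left out in turn, member calls ran from 30 to 31 over ATF3 and were 31 throughout over CHOP, from 31 to 31 for CEBPG, 29 to 30 for CHOP, 28 to 30 for ATF3 and 5 (4 higher, 1 lower) to 18 for ATF4 over control. In CHOP over ATF3 they ran from 1 to 2, with 1 call without ATF3 replicate 5, 7, 8 or 9 or without CHOP replicate 1, 3 or 5. That call was higher in each of these fits, so Cd8b1 was no longer called lower. Calls of the wider list ran from 44 to 46 and from 47 to 51 for CEBPG over ATF3 and CHOP, from 3 to 5 for CHOP over ATF3, and from 50 to 55, 41 to 46, 42 to 46 and 10 to 18 for CEBPG, CHOP, ATF3 and ATF4 over control. The member share of reads ran from 0.355% to 0.391% in CEBPG, 0.0643% to 0.0716% in CHOP, 0.0538% to 0.0559% in ATF3 and 0.00490% to 0.0138% in ATF4 knockouts, and from 0.00285% to 0.00365% in controls.

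Same-numbered libraries did not deviate together (12 pairs, correlations from -0.0476 to 0.0264), so the numbers do not pair them. With the replicate number as a block, member calls were 8 in CEBPG over CHOP, 0 in CHOP over ATF3 and 1 in ATF4 over control. Wider list calls were 12, 0 and 2 in the same order and 30 in CHOP over control. No replicate number is shared by CEBPG and CHOP libraries or by ATF4 and control libraries, and CHOP and ATF3 share only number 5. The block thus compares these groups mainly or only through other groups. With only the 14 libraries of the batch in the fit, CHOP over ATF3 had 4 member calls and 9 wider list calls, and with DESeq2 it had 7 wider list calls. The cause of these differences was not tested.

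Replacing the controls by the other 2 knockouts of the batch turned the sign of 58 member values called against control, since CEBPG is then part of the comparison. It gave 30 wider list calls for CHOP, all lower. The member calls were then 20 for CHOP and 24 for ATF3, also all lower. For CHOP over the other 2 knockouts of its batch the log2 fold changes were Cd3d -1.17, Cd3e -1.003, Cd3g -0.95, Cd247 -1.10, Cd8a -2.21, Cd8b1 -2.59, Lck -1.06, Zap70 -1.04, Lat -1.32, Skap1 -1.48, Sh2d2a -1.33, Cd2 -0.71, Cd5 -0.63, Cd6 -0.57 and Cd96 -1.12. The rest for CHOP were Cd28 -1.04, Ctla4 -0.89, Icos -1.25, Gzmb -1.23, Gzmk -2.06, Prf1 -2.11, Nkg7 -0.99, Klrc1 -1.10, Klrd1 -1.24, Il2rb -0.73, Ifng -0.41, Tbx21 -1.12, Dusp2 -0.60 and Ptprcap -1.34. For ATF3 over the other 2 knockouts of its batch the log2 fold changes were Cd3d -1.32, Cd3e -1.13, Cd3g -1.30, Cd247 -0.91, Cd8a -1.44, Cd8b1 -0.42, Lck -1.70, Zap70 -1.07, Lat -1.34, Skap1 -1.22, Sh2d2a -1.23, Cd2 -1.52, Cd5 -1.81, Cd6 -1.78 and Cd96 -1.14. The rest for ATF3 were Cd28 -1.65, Ctla4 -1.12, Icos -0.79, Gzma -1.10, Gzmb -1.58, Gzmk -1.97, Prf1 -0.47, Nkg7 -2.20, Klrc1 -1.89, Klrd1 -1.89, Il2rb -1.51, Tbx21 -1.38, Dusp2 -2.75 and Ptprcap -0.84. Changes of sign were counted only for members called in the main fit, so members not called can add to them. Leaving out 1 library at a time, 6 called members turned negative in ATF4 over control, each without ATF4 replicate 1. Their log2 fold changes ran from -0.17 to 3.89 for Cd3g, from -2.33 to 5.97 for Cd8b1, from -0.0057 to 2.81 for Lat, from -2.33 to 7.61 for Sh2d2a, from -2.33 to 8.52 for Cd96 and from -4.14 to 6.80 for Icos. Depth limits the controls most, where 3 reads reach up to 0.469 RPM and members at 0 give no fold. Batch and sex cannot be told apart from the guide against controls, the sort gate is not known, and 2 ATF4 libraries that differ from each other carry that group.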

Other observations

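The 12 genes of a list for dividing cells summed to 131 ± 39.1 RPM in CEBPG, 35.4 ± 4.95 in CHOP and 54.5 ± 12.3 in ATF3 knockouts, to 24.5 ± 12.3 in the 2 ATF4 knockouts and to 57.5 ± 11.3 in controls (SD). In CEBPG over CHOP 7 of the 12 rose, against 13.5% of all genes, and in CEBPG over ATF3 2 did, near the 10.2% of all genes (edgeR, adjusted p under 0.05). Ccna2, the cyclin A2 gene and the highest of the list, averaged 26.9 ± 6.60 CPM in CEBPG, 19.5 ± 3.23 CPM in CHOP and 19.7 ± 2.73 CPM in ATF3 knockouts and was highest in controls, at 34.5 ± 15.2 CPM. Top2a, a topoisomerase of dividing cells, averaged 23.9 ± 7.07 CPM in CEBPG, 2.17 ± 1.16 CPM in CHOP and 5.18 ± 2.31 CPM in ATF3 knockouts and 3.07 ± 3.16 CPM in controls. The data do not say which cells carried these reads.

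Genes of gamma delta and type 17 T cells were lower in CHOP than in ATF3 knockouts by their sum. They summed to 318 ± 36.7 RPM in CEBPG, 58.3 ± 11.6 in CHOP and 204 ± 16.9 in ATF3 knockouts, to 43.7 ± 14.7 in ATF4 knockouts and to 21.1 ± 5.89 in controls. Of 13 tested, 8 rose in CEBPG over CHOP, against 13.5% of all genes, and 5 fell in CHOP over ATF3, against 1.51%. In CEBPG over ATF3 2 rose and 1 fell, near the 10.2% and 10.1% of all genes. Cd163l1 averaged 110 ± 18.04 CPM in CEBPG, 8.51 ± 5.85 CPM in CHOP and 92.8 ± 7.40 CPM in ATF3 knockouts and was at 0 in every ATF4 and control library. The chemokine receptor gene Ccr8 averaged 54.7 ± 11.6 CPM in CEBPG, 13.7 ± 2.53 CPM in CHOP and 10.05 ± 4.21 CPM in ATF3 knockouts and was at 0 in every control.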
